A study of Mus musculus with 8 samples.

Results

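The step from the common monocyte progenitor (cMoP) to the Ly6Chi monocyte was followed in 4 of the 8 libraries of the series. These were 2 libraries of bone marrow cMoP (genotype label cMOP_WT, described as cMOP_FL_FL) and 2 of bone marrow Ly6Chi monocytes (genotype label Ly6Chi_WT, described as MOplus_FL_FL), chosen by their labels alone. All 4 came from untreated mouse cells, and FL_FL is read here as a floxed allele carried by both groups without its deletion. The labels give no age and do not state whether each replicate is its own animal, so a p-value here measures only the spread of these libraries, which may be technical. A cell type tag of the labels reads "Monocytic cell line", against the bone marrow source names and a growth protocol for primary cells, and the source names were followed. The other 4 libraries (1 monocyte-dendritic progenitor, 1 Ly6Clo monocyte and 2 Upf2-deleted Ly6Chi monocytes) entered the same fits: they count in the filters that decide which genes and introns were tested, and the Upf2-deleted pair adds to the common estimate of spread. Each library has a column of gene expression and a table of reads at the boundaries of every intron, from strand-specific sequencing of polyadenylated RNA.

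The cMoP is a dividing bone marrow cell that no longer makes dendritic cells and gives rise to monocytes. It still fills azurophil granules with proteases and peroxidase, a trait it shares with early granulocyte precursors. The Ly6Chi (classical) monocyte that follows is held in the marrow, enters blood through the chemokine receptor CCR2, and can become a macrophage, a dendritic-like cell or a Ly6Clo patrolling monocyte. Introns are normally removed before export from the nucleus, and an intron left in a transcript often brings a premature stop codon, which exposes the RNA to nonsense-mediated decay (NMD).

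The cMoP libraries hold 36647463 and 37591021 spliced reads at introns and the Ly6Chi libraries 31170294 and 33957677. The 2 cMoP replicates correlated at r = 0.973 over log2 expression of tested genes and the Ly6Chi replicates at 0.988. cMoP replicate 2 stood apart. It had 6.05 reads across exon-intron boundaries per 100 spliced reads, against 8.28 in cMoP replicate 1 and 9.32 and 9.46 in Ly6Chi. Its spliced reads leaned most to the 3′ end of genes: over 4476 genes, with the introns of a gene split into 3 equal parts, the median log2 ratio of reads in the 3′-most part to the 5′-most part was 0.64, against 0.35 in cMoP replicate 1 and 0.11 and 0.17 in Ly6Chi. It also had fewest genes at 1 TPM or more, 11106 against 11883 in its partner and 11986 and 11922 in Ly6Chi. Its part in the differences below was not tested, and counts of genes in a list are given without it where they moved by over 1.5 times.

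Expression is in TPM, a share of all transcripts that is scaled by transcript length and to the same total in each library, and a log2 change is that of TPM + 1, Ly6Chi minus cMoP, ± its standard error. TPM + 1 understates the change of low genes. The median of all 13126 tested genes moved by 0.19, and every log2 change below is given relative to that shift, while its adjusted p tests the fitted change before the shift was taken off. A gene is called higher (rose) or lower (fell) at an adjusted p under 0.05 in limma. Groups said not to overlap are described, not tested, and the share of all tested genes without overlap is not given. Such separation also occurs without a call: of 26 mitosis genes, 17 were higher and 7 lower without overlap, while 6 and 1 were called. In bulk RNA, fewer cells of a type and less RNA per cell cannot be told apart, so a lower value can stand for either.

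Markers were checked against both labels. Mpo, the peroxidase of azurophil granules, measured 12416 and 10338 TPM in cMoP and 77.2 and 97.3 TPM in Ly6Chi. Below, paired values are replicates 1 and 2, with cMoP before the word "against" and Ly6Chi after it. Ccr2, the receptor for marrow exit, measured 129 and 74.1 against 1401 and 1357 TPM, and Itgam, the integrin CD11b gained by monocytes, 11.7 and 4.2 against 403 and 371 TPM. In all 3 genes the groups were far apart, with cMoP high for Mpo and Ly6Chi high for Ccr2 and Itgam. Ly6c2, which encodes the antigen that names the Ly6Chi cell, did not separate them: it measured 4875 and 3518 against 3439 and 4057 TPM, the groups overlapped and it did not pass (log2 change -0.34 ± 0.18, adjusted p = 0.51).

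Of the 13126 genes, 4235 were higher (32.3%) and 3053 lower (23.3%) in Ly6Chi. The count of each list below is to be read against these shares. All lists were chosen with earlier results of these data known, so their counts are descriptions. The split depended on scaling: centring each library on its median gave 3354 higher and 4462 lower, and quantile normalisation 3695 and 4423. Of the calls, 3339 higher and 3024 lower were made under all 3 scalings, none was opposite, and 4260 of all called genes differed at least 2-fold. Without cMoP replicate 2 the counts were 3528 and 3246. Leaving out a Ly6Chi library, so that the remaining one is assumed to vary like the other groups, lowered them to 2164 and 1610 (without replicate 1) or 2410 and 1595 (without replicate 2). Where leaving out 1 library or changing the scaling moved a list's count by over 1.5 times, the counts of that fit follow the list in parentheses, which was most common with a Ly6Chi library left out. No called gene named below changed direction. In all 12 fits (this one and 11 alternatives) 1683 genes were higher and 1250 lower, and a call made in fewer of them is marked with its number.

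A few transcripts dominated the change. The 12 genes with the largest rise in mean TPM took 1.08% of all transcripts in cMoP and 8.88% in Ly6Chi. Lyz2, the lysozyme that cleaves bacterial cell walls, led at 778 and 404 against 36103 and 38197 TPM, 62.9-fold higher (log2 change 5.85 ± 0.29, adjusted p = 0.000147). Tmsb4x and Tmsb10, which sequester actin monomers, Actb and Actg1, the cytoplasmic actins, S100a4 and Crip1, the matrix protein gene Fn1, the chitinase-like Chil3, the lysosomal Psap, the signalling adaptor Tyrobp and the antiviral membrane protein gene Ifitm3 completed the list. Tmsb4x measured 3882 and 2570 against 9644 and 17262 TPM. Psap measured 983 and 582 against 6079 and 6527 TPM. Both sets of 12 were picked among called genes without overlap, so the separation of their groups follows from the choice. Tmsb4x was less even between its Ly6Chi replicates than Psap. The 12 genes with the largest fall went from 6.59% to 1.88% of transcripts: Mpo, Prtn3, Elane and Ctsg of the granules, Rps12, Rps2, Rplp1 and Rpl41 of the ribosome, Ppia, Ptma, Calr and Plac8.

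Primary granule genes fell together. Of 14 tested members 12 fell, Rnase2a rose from under 1 TPM, and Ear1 did not pass (2 higher and 12 lower without Ly6Chi replicate 1); the median change of the list was -3.63, and its share of transcripts went from 3.08% and 3.15% in cMoP to 0.178% and 0.2% in Ly6Chi. Mpo was 130-fold lower (log2 change -7.21 ± 0.22, adjusted p = 5.67e-05). Elane, neutrophil elastase, measured 5617 and 4842 against 144 and 191 TPM (log2 change -5.16 ± 0.17, adjusted p = 6.76e-05). Prtn3, proteinase 3, measured 5005 and 5907 against 245 and 279.62 TPM, and Ctsg, cathepsin G, 2226 and 2417 against 63.4 and 76.6 TPM. For all 4 of these genes each Ly6Chi library lay below 300 TPM and far under each cMoP library. The chaperone Calr, which folds proteins in the endoplasmic reticulum and is no member of the list, fell by less, at 2429 and 3616 against 521 and 521 TPM (log2 change -2.70 ± 0.20, adjusted p = 0.000519).

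Progenitor genes fell as well, with 12 of 17 tested members lower and 3 higher (median -2.14). Kit, the stem cell factor receptor, measured 49.95 and 30.99 against 0.3 and 0.31 TPM, 133-fold lower (log2 change -5.15 ± 0.26, adjusted p = 0.000174). Cd34, a surface sialomucin of progenitors, measured 190.26 and 119.98 against 6.08 and 7.33 TPM (log2 change -4.50 ± 0.24, adjusted p = 0.000211). No Ly6Chi library came near a cMoP library for these genes. Sox4, an HMG-box factor, measured 8.84 and 3.34 against 0.48 and 0.49 TPM, and Hoxa9, a homeobox factor of progenitors, 4.9 and 4.37 against 0.25 and 0.05 TPM (11 of 12 fits). Meis1, the partner of Hoxa9, did not pass, at 3.6 and 2.9 against 3.23 and 2.69 TPM, and the groups overlapped. The 3 that rose were Cd48, Spink2 and Flt3, the receptor of early and dendritic progenitors, at 4.19 and 0.88 against 10.3 and 8.19 TPM (8 of 12 fits).

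The receptors for monocyte and granulocyte growth factors rose while Kit fell. Of 19 tested receptors 16 rose and Kit alone fell (median 1.35). Csf1r, the receptor for M-CSF on which monocytes depend, measured 169 and 89.9 against 547 and 535 TPM (log2 change 1.93 ± 0.29, adjusted p = 0.00241). Csf3r, the G-CSF receptor of the granulocyte line, rose too, at 76.4 and 63.9 against 207 and 204 TPM (log2 change 1.35 ± 0.13, adjusted p = 0.000549). Csf2ra, the GM-CSF receptor alpha chain, measured 139.99 and 76 against 391 and 419 TPM, and Ifngr1, of the interferon-gamma receptor, 183 and 116 against 382 and 353 TPM. The groups did not overlap for these 4 genes, and cMoP replicate 2 was the lowest library in each. Il3ra and Il6st were the members that did not pass.

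Among 36 transcription factors of the monocyte and granulocyte lines, 21 rose and 5 fell (16 higher and 8 lower without cMoP replicate 2, 21 and 8 with median centring; median 1.00). Gfi1, a repressor that favours granulocytes, measured 22.4 and 19.2 against 0.44 and 0.57 TPM (log2 change -4.05 ± 0.18, adjusted p = 0.000138). Myc, which drives growth and ribosome synthesis, measured 116 and 148 against 7.39 and 6.68 TPM (log2 change -4.24 ± 0.24, adjusted p = 0.000247). Myb, a factor of dividing progenitors, measured 187 and 123 against 9.55 and 10.96 TPM (log2 change -3.96 ± 0.24, adjusted p = 0.000273). Myc and Myb were over 100 TPM in each cMoP library and at most 11 TPM in each Ly6Chi library.

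Of the factors that establish the lineage, some rose and some did not pass. Spi1, which encodes PU.1, measured 287 and 251 against 538 and 554 TPM (log2 change 0.83 ± 0.14, adjusted p = 0.00241). Klf4, needed for monocytes to form, measured 103 and 56.3 against 250.02 and 262 TPM (log2 change 1.54 ± 0.28, adjusted p = 0.00444). Cebpb, which supports monocyte survival, measured 56.2 and 59.7 against 219 and 325 TPM (log2 change 1.99 ± 0.20, adjusted p = 0.000761). These 3 were higher in each Ly6Chi library than in either cMoP library. Irf8, a factor that turns progenitors from granulocytes to monocytes, did not pass, at 490.04 and 300.4 against 309.96 and 268 TPM (log2 change -0.61 ± 0.24, adjusted p = 0.194). Cebpa, needed for all myeloid cells, did not pass either, at 100.25 and 94.01 against 104 and 85.3 TPM (log2 change -0.24 ± 0.14, adjusted p = 0.817), nor did Cebpe, a factor of granule genes, at 12.7 and 11.9 against 13.5 and 10.7 TPM. In these 3 the groups overlapped. Zeb2, a repressor that acts in monocyte and dendritic cell development, measured 80.6 and 22.2 against 222 and 202 TPM (9 of 12 fits), and Nr4a1, which Ly6Clo monocytes need, 7.03 and 1.17 against 97.3 and 193 TPM (log2 change 4.85 ± 0.68, adjusted p = 0.00248). In both of them cMoP replicate 2 was well below cMoP replicate 1.

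**Figure D1:**
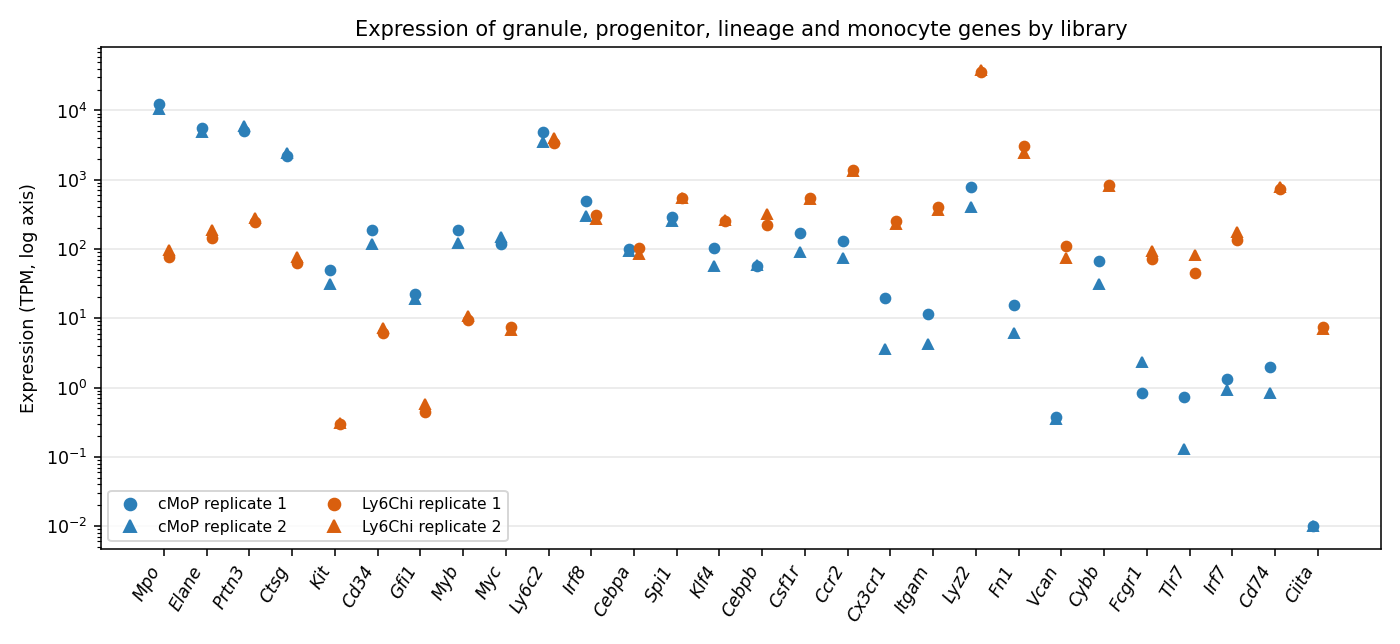
Expression in TPM (log axis) of 28 genes in the 2 cMoP libraries (blue) and the 2 Ly6Chi libraries (orange), with circles for replicate 1 and triangles for replicate 2. Granule and progenitor genes on the left are high in cMoP, Ly6c2, Irf8 and Cebpa in the middle overlap, and the genes on the right are high in Ly6Chi, with Lyz2 at 36103 and 38197 TPM.

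Receptors for leaving marrow and for adhesion rose in 16 of 21 tested members and fell in 1, Pecam1 (14 higher and 2 lower without cMoP replicate 2, 15 and 2 with median centring, 16 and 2 with quantile normalisation; median 1.03). Ccr2 was 13.6-fold higher (log2 change 3.61 ± 0.28, adjusted p = 0.000404). Cx3cr1, the fractalkine receptor, measured 19.8 and 3.59 against 253 and 233 TPM (log2 change 4.44 ± 0.66, adjusted p = 0.00288). Itgam had the largest change of the 3 (log2 change 5.38 ± 0.41, adjusted p = 0.000408). Cx3cr1 was more uneven between the cMoP replicates than the others, yet each Ly6Chi library was over 10 times the higher of them. Itgal, the integrin LFA-1 alpha chain, measured 87.8 and 51.1 against 158 and 159 TPM (9 of 12 fits). Cxcr4, which holds cells in marrow through CXCL12, did not pass, at 213 and 168 against 234 and 226 TPM (log2 change 0.08 ± 0.14, adjusted p = 0.137).

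The phagocyte oxidase, which makes superoxide, rose in 6 of its 7 genes, and the proton channel gene Hvcn1 fell (6 of 12 fits; 6 higher and 0 lower without cMoP replicate 1, 4 and 0 without Ly6Chi replicate 1, 5 and 0 without Ly6Chi replicate 2). Cybb, the catalytic subunit, measured 66.95 and 31.2 against 849.56 and 816 TPM (log2 change 3.96 ± 0.35, adjusted p = 0.000593). Its membrane partner Cyba measured 311 and 314 against 1063 and 1146 TPM. Of the cytosolic subunits, Ncf4 measured 156 and 166 against 359 and 358 TPM and Ncf1 202 and 143 against 398 and 323 TPM (11 of 12 fits). No cMoP library reached a Ly6Chi library for any of these 4 subunits, and apart from Cybb all were over 80 TPM in cMoP.

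Fc receptor and complement genes rose in 16 of 17 tested members, with none lower (16 higher and 1 lower without cMoP replicate 2; median 1.49). Fcgr1, the high-affinity IgG receptor, measured 0.83 and 2.35 against 72.5 and 94.4 TPM (log2 change 4.89 ± 0.31, adjusted p = 0.000258). Fcgr4, which binds IgG2 subclasses, measured 2.75 and 1.76 against 17.04 and 11.3 TPM, and the inhibitory Fcgr2b 109 and 87.96 against 266 and 235 TPM. Fcer1g, the signalling chain of the activating receptors, measured 533 and 336 against 1553 and 1660 TPM. All 4 genes rose without overlap. C3ar1, the receptor for the complement fragment C3a, was at or near 0 in cMoP and measured 1.7 and 1.69 TPM in Ly6Chi.

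Pattern recognition genes rose in 23 of 26 members, with none lower (median 1.98). Tlr7 and Tlr9 sense RNA and DNA in endosomes: Tlr7 measured 0.73 and 0.13 against 44.6 and 82.8 TPM (log2 change 5.27 ± 0.35, adjusted p = 0.00028). Tlr9 measured 4.42 and 0.92 against 50.9 and 47.7 TPM. Of the surface receptors, Tlr2, for lipopeptides, measured 15.5 and 9.58 against 70.1 and 113 TPM, and Tlr4, for lipopolysaccharide, 4.07 and 2.69 against 18.04 and 16.9 TPM. In these 4 genes the lowest value was that of cMoP replicate 2, and the groups did not overlap. Cd14, the coreceptor of Tlr4, did not pass, at 23.8 and 9.79 against 30.4 and 77.6 TPM (adjusted p = 0.0545), and its Ly6Chi replicates were far apart. Nod2, which senses bacterial wall peptides in the cytosol, measured 0.16 and 0.04 against 7.77 and 7.6 TPM.

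Inflammasome genes rose in 14 of 15 members, and Mefv did not pass (median 1.75). Nlrp3, a sensor of cell damage, measured 7.98 and 1.78 against 46.5 and 46.4 TPM (log2 change 3.05 ± 0.52, adjusted p = 0.00414). Its adaptor Pycard (ASC) measured 148 and 158 against 252 and 269 TPM (11 of 12 fits), and Casp1, the protease that they activate, 56.5 and 54.01 against 98.5 and 94.99 TPM (log2 change 0.60 ± 0.11, adjusted p = 0.0026). Gsdmd, the pore-forming target of Casp1, measured 51.1 and 41.96 against 113 and 119 TPM. The adaptor, protease and pore genes were thus over 40 TPM in both progenitor libraries, whereas Nlrp3 was under 8 TPM.

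The response to type I interferon, in which a complex that holds STAT2 and IRF9 binds the promoters of antiviral genes, rose in 28 of 29 tested members (median 3.32). The letters GAAA, then NN, then GAAA (N is any base; searched on both strands; 1 or more matches counted once per promoter) are the known core of the element bound by that complex. They were found in the 250 bases before the start of 10 of the 20 list members that have an entry in the RefSeq promoter table (GRCm38.p6), 50%, against 3.04% of all 27025 promoters and 2.83% of those of tested genes. The windows of 4 of them are printed here, on the strand of the gene, because these genes rose together. Capitals mark only the first match found, on either strand. The Isg15 and Ifit1 windows each hold a further match that is not marked. A match describes these letters and does not show binding.
Ifit1 (chr19:34640765-34640814, plus strand): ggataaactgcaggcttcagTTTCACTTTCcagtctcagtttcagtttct
Ifit3 (chr19:34583353-34583402, plus strand): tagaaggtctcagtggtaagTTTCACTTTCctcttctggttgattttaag
Isg15 (chr4:156200867-156200916, minus strand): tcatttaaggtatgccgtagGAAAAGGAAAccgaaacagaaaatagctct
Rsad2 (chr12:26456543-26456592, minus strand): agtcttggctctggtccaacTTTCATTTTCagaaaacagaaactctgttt

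Ifit1 and Ifit3, which bind foreign RNA, were nearly silent in cMoP: Ifit1 measured 0.24 and 0.17 against 9.85 and 14.6 TPM (log2 change 3.24 ± 0.23, adjusted p = 0.000309). Ifit3 measured 0.07 and 0.07 against 40.3 and 54.9 TPM. Isg15, a ubiquitin-like modifier, measured 1.84 and 1.7 against 23.7 and 41.2 TPM, and Rsad2, viperin, 0.12 and 0.06 against 11.3 and 14.8 TPM. All 4 were under 2 TPM in both cMoP libraries and over 9 TPM in both Ly6Chi libraries, with Ly6Chi replicate 2 the higher each time. Factors of the pathway were present before: Stat2 measured 8.98 and 4.81 against 53.03 and 54.8 TPM, and Irf9 24.6 and 18.02 against 99.4 and 106 TPM (log2 change 2.04 ± 0.18, adjusted p = 0.000544). Both rose without overlap. Ifit3, Isg15 and Rsad2 were chosen after their values were seen. Bst2, tetherin, was the member that did not pass, at 103 and 145 against 87.7 and 131 TPM, and its promoter holds the match as well.

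MHC class II genes, which present peptides to CD4+ T cells, rose in 8 of 11 tested members, and none fell (8 higher and 1 lower without cMoP replicate 2, 8 and 1 with either other scaling). Ciita, the coactivator that switches these genes on, measured 0.01 and 0.01 against 7.6 and 6.92 TPM (log2 change 2.84 ± 0.37, adjusted p = 0.00183). The chain gene H2-Ab1 measured 9.51 and 7.49 against 211 and 172 TPM, and H2-Eb1 0.38 and 0.27 against 108 and 70.6 TPM. Ciita and H2-Eb1 were under 1 TPM in both cMoP libraries. H2-DMb2, H2-Oa and H2-Ob, of the peptide exchange factor and its inhibitor, did not pass. Of 17 MHC class I and loading genes 7 rose and 2 fell (4 higher and 2 lower without cMoP replicate 2, 4 and 2 without Ly6Chi replicate 1, 3 and 2 without Ly6Chi replicate 2, 5 and 4 with either other scaling). In shares, the class I list was 41.2% higher and 11.8% lower, against 32.3% and 23.3% of all tested genes. H2-D1 measured 654 and 464 against 1408 and 1777 TPM (log2 change 1.33 ± 0.20, adjusted p = 0.00223). Its light chain B2m measured 1710 and 1281 against 2500 and 3225 TPM (10 of 12 fits), and the peptide transporter Tap1 82.3 and 57.1 against 108 and 133 TPM (5 of 12 fits).

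Lysosomal genes rose in 26 of 32 members and fell in 2 (21 higher and 1 lower without Ly6Chi replicate 1, 24 and 0 without Ly6Chi replicate 2; median 1.32). Psap, the precursor of the saposins, was 8.05-fold higher (log2 change 2.86 ± 0.24, adjusted p = 0.000519). Ctsb, a cysteine cathepsin, measured 129 and 89.8 against 467 and 486 TPM, and Grn, progranulin, 213 and 115 against 685 and 707 TPM. Lamp1 and Lamp2, proteins of the lysosomal membrane, changed less, with Lamp1 at 555 and 409.76 against 1045 and 1063 TPM. Tfeb, a transcription factor of lysosomal genes, measured 22.5 and 18.2 against 75.6 and 75.7 TPM (log2 change 1.66 ± 0.14, adjusted p = 0.000486). None of these genes overlapped between the groups.

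Genes known from Ly6Chi monocytes rose in 23 of 26 members, and Plac8 fell. The list as a whole went from 1.32% and 1.17% to 6.43% and 6.71% of transcripts. Vcan, the proteoglycan versican, measured 0.38 and 0.35 against 112 and 74.6 TPM (log2 change 5.89 ± 0.25, adjusted p = 0.000101). S100a4, a calcium-binding protein of motile cells, measured 119 and 52.7 against 3916 and 3704 TPM. F13a1, the coagulation factor XIII A chain, measured 633 and 381 against 1495 and 1336 TPM, so the progenitor libraries held it above 300 TPM. Plac8 measured 4704 and 5392 against 2580 and 2998 TPM (log2 change -1.05 ± 0.13, adjusted p = 0.0033). Genes known from Ly6Clo monocytes also rose, in 18 of 24 members. Ace, angiotensin-converting enzyme, was listed at 0 in both cMoP libraries and at 31.5 and 15.1 TPM in Ly6Chi. Treml4, a receptor of Ly6Clo cells, measured 0.34 and 0.18 against 20.1 and 10.8 TPM.

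Genes of secondary granules and neutrophils went the other way from primary granule genes: 16 of 19 tested members rose and none fell (6 higher and 0 lower without Ly6Chi replicate 2), and their summed level went from 559 and 516 TPM to 4454 and 4538 TPM. Chil3, which is also a Ly6Chi monocyte gene, made up 2532 and 2132 TPM of the latter. S100a8, a subunit of calprotectin, measured 165 and 205 against 579 and 653 TPM (log2 change 1.54 ± 0.18, adjusted p = 0.00105). The granule genes Ltf, Camp and Ngp define neutrophils more closely. Ltf, lactoferrin, measured 12.1 and 4.02 against 37.2 and 59.7 TPM (10 of 12 fits), Camp, cathelicidin, 17.5 and 4.8 against 41.96 and 69.4 TPM (10 of 12 fits), and Ngp 32.2 and 8.78 against 86.7 and 143 TPM (10 of 12 fits). In these 3 cMoP replicate 2 was the lowest and Ly6Chi replicate 2 the highest library. Lcn2, lipocalin 2, measured 44.3 and 73.9 against 107 and 141 TPM (7 of 12 fits), and Ly6g, the antigen used to sort neutrophils and chosen after its values were seen, 0.7 and 0.4 against 1.91 and 2.81 TPM (7 of 12 fits). The part of neutrophils in these values was not tested.

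Lists of markers of other cells were read by their summed levels and calls. Of 14 markers of T and NK cells 13 were under 1 TPM in all 4 libraries. The list summed to 251 and 282 TPM in cMoP and 7.76 and 6.52 TPM in Ly6Chi, nearly all of it Nkg7, a granule membrane protein, which fell. The B and plasma cell list summed to 559 and 304 against 596 and 773 TPM, most of it Ighm and Igkc, with 1 of 10 tested members higher and 2 lower (3 higher and 2 lower without cMoP replicate 1, 2 and 1 without Ly6Chi replicate 1, 0 and 1 without Ly6Chi replicate 2), while Pax5 and Ms4a1 stayed under 0.5 TPM. The erythroid and platelet list summed to 30.8 and 7.07 against 37 and 191 TPM, highest in Ly6Chi replicate 2 and lowest in cMoP replicate 2, and 1 of 6 tested members rose (4 higher and 0 lower without cMoP replicate 1, 0 and 0 without cMoP replicate 2, 3 and 0 without Ly6Chi replicate 1, 0 and 1 without Ly6Chi replicate 2, 0 and 1 with either other scaling). The dendritic cell list summed to 124 and 153 against 188 and 222 TPM, and 6 of 10 tested members rose and 1 fell (3 higher and 0 lower without Ly6Chi replicate 1, 4 and 0 without Ly6Chi replicate 2). The macrophage list summed to 18.2 and 6.92 against 162 and 157 TPM, most of it Adgre1 (F4/80), which monocytes also express, and 6 of 8 tested members rose (6 higher and 1 lower without cMoP replicate 2, 6 and 1 with either other scaling). Timd4, a marker of resident macrophages, was listed at 0 in all 4 libraries. The eosinophil, basophil and mast cell list summed to 80.6 and 46.5 against 20.2 and 32 TPM, and 4 of 7 tested members fell and 1 rose (2 higher and 4 lower without cMoP replicate 1, 2 and 2 without Ly6Chi replicate 1). In shares, the B and plasma cell list was 10% higher and 20% lower, against 32.3% and 23.3% of all tested genes. The part of cells of other types in the results was not tested.

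**Figure D2:**
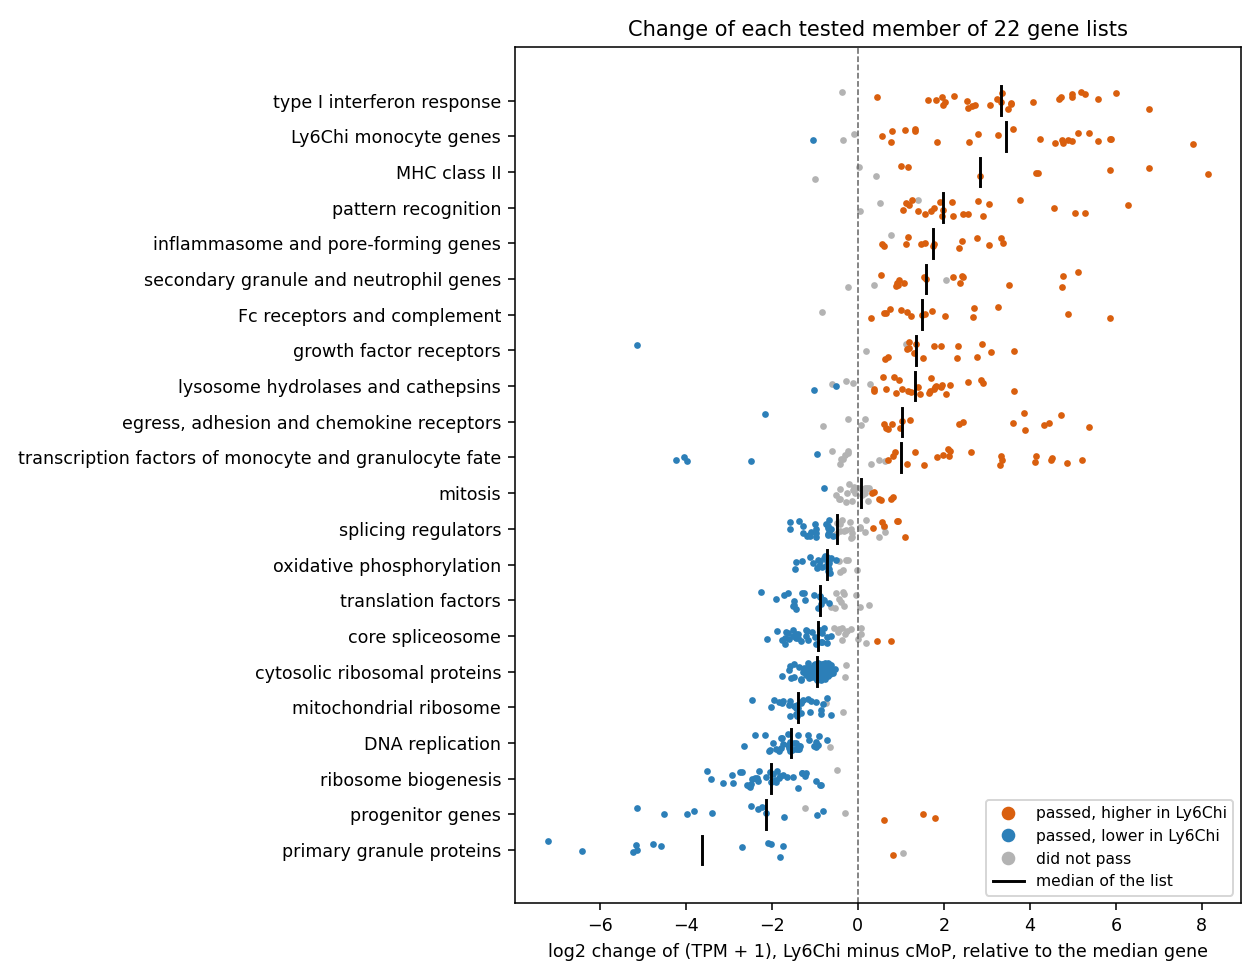
Log2 change of TPM + 1 from cMoP to Ly6Chi, relative to the median gene, for each tested member of 22 gene lists (1 row per list, 1 dot per gene; orange rose, blue fell, grey did not pass; bars are medians). Medians run from 3.43 for Ly6Chi monocyte genes to -3.63 for primary granule proteins, and the mitosis list lies at 0.08.

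DNA replication and mitosis genes differed in how many moved. Of 36 replication genes 35 fell and none rose (median -1.56), and Ccne1 did not pass. Mcm2 and Mcm5 are subunits of the replicative helicase. Mcm2 measured 162 and 158 against 41.9 and 38.9 TPM (log2 change -2.16 ± 0.12, adjusted p = 0.000258), and Mcm5 321 and 277 against 118 and 109 TPM. Rrm1, which makes deoxynucleotides, measured 208 and 239 against 99.1 and 89.4 TPM, and E2f1, which activates these genes, 48.7 and 38.4 against 17.7 and 19.7 TPM. Every Ly6Chi library was below every cMoP library for these 4 genes, and none reached 0. Of 26 mitosis genes 6 rose and 1 fell, with a median of 0.08 (9 higher and 3 lower without cMoP replicate 1, 2 and 1 without cMoP replicate 2, 0 and 0 with either Ly6Chi library left out, 1 and 3 with median centring, 2 and 5 with quantile normalisation). The mitosis counts thus depended on scaling and on single libraries, and none passed with a Ly6Chi library left out.

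Top2a, the topoisomerase that separates chromosomes, did not pass, at 301 and 298 against 291 and 286 TPM (log2 change -0.25 ± 0.11, adjusted p = 0.697). Ccnb1, the mitotic cyclin, measured 86.5 and 85.2 against 95.9 and 86.7 TPM (log2 change -0.11 ± 0.18, adjusted p = 0.707), and Aurkb, a kinase of chromosome segregation, 154 and 126 against 141 and 137 TPM; neither passed. Mki67, the Ki-67 antigen of dividing cells, measured 111 and 63.8 against 192 and 154 TPM (5 of 12 fits), and Cdk1, the mitotic kinase, 225 and 255 against 159.96 and 159 TPM (10 of 12 fits). Mki67 was called higher and Cdk1 lower. In shares, the mitosis list was 23.1% higher and 3.85% lower, against 32.3% and 23.3% of all tested genes.

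Regulators of entry into the cell cycle went both ways: of 27 cyclins, inhibitors and p53 targets 17 rose and 6 fell (11 higher and 5 lower without Ly6Chi replicate 1). Ccnd1 and Ccnd2 are cyclins that start the cycle with the kinase Cdk6. Ccnd1 measured 9.93 and 8.69 against 0.66 and 0.68 TPM. Ccnd2 measured 25.4 and 25.1 against 0.27 and 0.47 TPM (log2 change -4.46 ± 0.18, adjusted p = 0.000105), and Cdk6 69.8 and 47.2 against 5.1 and 4.78 TPM (log2 change -3.49 ± 0.24, adjusted p = 0.000396). All 3 fell, and both cyclins were under 1 TPM in Ly6Chi. The D cyclin Ccnd3 rose, at 142 and 175 against 321 and 366 TPM (log2 change 0.92 ± 0.15, adjusted p = 0.00262). Of the inhibitors, Cdkn1a (p21) measured 11.3 and 9.96 against 28.9 and 69.4 TPM (10 of 12 fits), Cdkn1b (p27) 16.4 and 7.3 against 46.7 and 52.6 TPM, and Cdkn2c (p18) 37.4 and 25.5 against 61.8 and 60.1 TPM (10 of 12 fits). All 3 inhibitors rose, Cdkn1a least evenly.

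Genes of ribosome production fell together. Of 37 tested ribosome biogenesis genes 36 fell and none rose (median -2.01). Npm1, nucleophosmin, measured 1719 and 3050 against 514 and 479 TPM (log2 change -2.40 ± 0.26, adjusted p = 0.00167). Ncl, nucleolin, measured 518 and 1044 against 148 and 139.69 TPM. Fbl, the methylase of ribosomal RNA, measured 364 and 501 against 115 and 125 TPM, and Nop56, its partner, 409 and 548 against 77.8 and 82.4 TPM (log2 change -2.74 ± 0.16, adjusted p = 0.000284). The largest subunit of RNA polymerase I, Polr1a, measured 33.6 and 38.4 against 18.1 and 14.6 TPM. The list was higher in cMoP replicate 2 than in replicate 1, at 0.909% and 0.552% of transcripts, and was 0.168% and 0.166% in Ly6Chi. The letters CACGTG, the known E-box of MYC, were in 2 of the 33 list promoters of the RefSeq table (6.06%), against 6.05% of all promoters and 8.66% of those of tested genes.

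Cytosolic ribosomal protein genes, a list chosen after their values were seen, fell in 78 of 80 tested members and rose in none (0 higher and 48 lower without Ly6Chi replicate 1, 2 and 55 with quantile normalisation). Together they were 21.7% and 22.6% of transcripts in cMoP and 13% and 13.6% in Ly6Chi. Rps2, of the small subunit, measured 4186 and 4962 against 1532 and 1548 TPM (log2 change -1.76 ± 0.13, adjusted p = 0.000598). Rps27 and Rps9 did not pass. Many pseudogene copies share reads with these genes, which makes single values uncertain. Translation factors fell in 19 of 30 members, with none higher (1 higher and 22 lower without cMoP replicate 1, 1 and 19 without cMoP replicate 2, 0 and 12 without Ly6Chi replicate 1, 0 and 11 without Ly6Chi replicate 2). Eif4e, which binds the cap, measured 157 and 207 against 79.5 and 93.9 TPM, and Eif4a1, the helicase that opens 5′ ends, 1239 and 1950 against 605 and 667 TPM. Eef2, which moves the ribosome, did not pass (1696 and 1474 against 1411 and 1439 TPM).

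**Figure D3:**
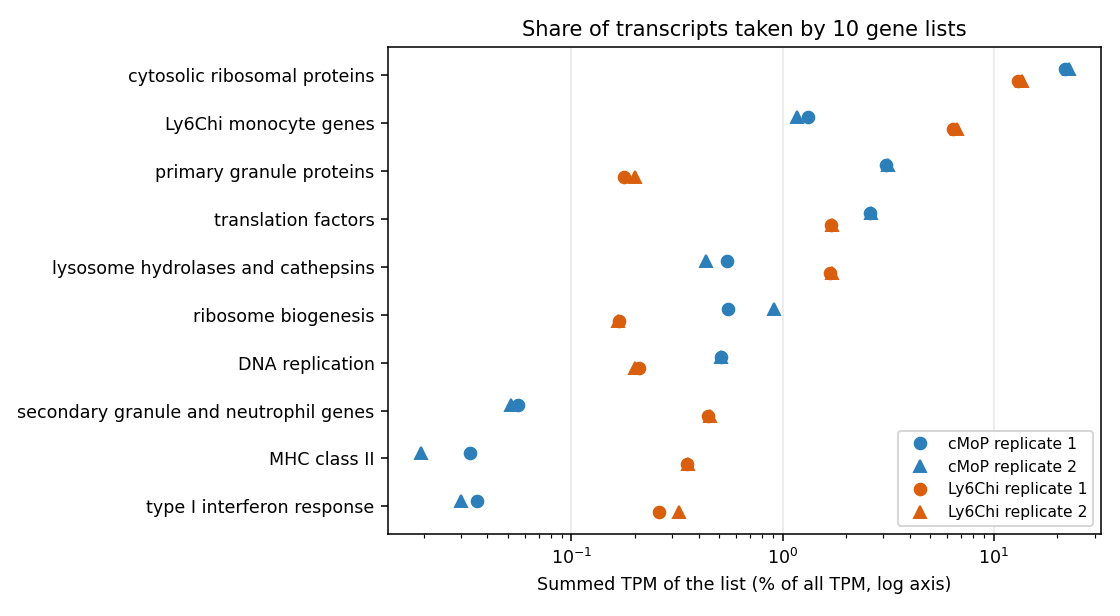
Summed TPM of 10 gene lists as a percentage of all TPM (log axis) in each of the 4 libraries, cMoP in blue and Ly6Chi in orange, with circles for replicate 1 and triangles for replicate 2. The groups do not overlap in any of the 10 lists, and the cMoP replicates lie furthest apart for MHC class II and ribosome biogenesis, the latter at 0.552% and 0.909%.

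Mitochondrial genes fell too. Of 32 mitochondrial ribosome genes 30 fell (0 higher and 18 lower without Ly6Chi replicate 1), and of 29 oxidative phosphorylation genes 23 fell (0 higher and 5 lower with either Ly6Chi library left out), with none higher in either list. Mrpl12, which also binds the mitochondrial RNA polymerase, measured 142 and 276 against 38.3 and 42.3 TPM (log2 change -2.47 ± 0.30, adjusted p = 0.00236). Of the respiratory chain, Sdha of complex II measured 198 and 182 against 137 and 127 TPM (10 of 12 fits), and Atp5a1 of ATP synthase 787 and 883 against 526 and 502 TPM. Cox4i1 of complex IV did not pass, at 775 and 885 against 687 and 716 TPM. The groups overlapped in none of these 4 genes, Cox4i1 included. Mrpl12 was the most uneven between the cMoP replicates.

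Glycolysis genes fell in 10 of 20 members and rose in 2 (4 higher and 12 lower without cMoP replicate 2, 1 and 7 with either Ly6Chi library left out, 1 and 12 with either other scaling). Ldha, which makes lactate, measured 719 and 1353 against 278 and 293 TPM (log2 change -1.98 ± 0.29, adjusted p = 0.00418). Hk3, a myeloid hexokinase, measured 252 and 141 against 93.4 and 101 TPM (8 of 12 fits). Pkm, pyruvate kinase, did not pass (989.77 and 1067 against 1061 and 1047 TPM). Serine synthesis and amino acid stress genes fell in 8 of 16 members and rose in 3. Phgdh, the first enzyme of serine synthesis, measured 289.92 and 451 against 15.1 and 16.3 TPM, 23.6-fold lower (log2 change -4.64 ± 0.23, adjusted p = 0.000174). The next enzymes Psat1 and Psph fell by less, with Psat1 at 129.85 and 215 against 63.1 and 59.2 TPM. Shmt2, which feeds serine carbon into mitochondrial folate, measured 186 and 296 against 28.4 and 30.4 TPM. Atf4, the transcription factor of the stress response, did not pass (242 and 335 against 179 and 236 TPM).

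In the list of iron, haem and lipid handling 11 of 23 tested genes rose and 4 fell. Tfrc, the transferrin receptor, measured 55.4 and 126 against 4.69 and 4.54 TPM (log2 change -4.11 ± 0.37, adjusted p = 0.000857). Hmox1, which degrades haem, measured 3.29 and 2.33 against 81.7 and 92.9 TPM (log2 change 4.35 ± 0.19, adjusted p = 0.000104). Apoe, a lipid carrier, measured 14.4 and 8.51 against 728 and 857 TPM (log2 change 5.84 ± 0.28, adjusted p = 0.00014). Tfrc was high in cMoP and the other 2 in Ly6Chi, without overlap. Abca1, a cholesterol exporter, measured 0.45 and 0.03 against 3.39 and 3.67 TPM (11 of 12 fits). Slc40a1, the iron exporter, was under 1 TPM in all 4 libraries.

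Survival genes of the Bcl2 family rose in 8 of 14 members, and 1 fell (9 higher and 2 lower without cMoP replicate 1, 8 and 2 without cMoP replicate 2, 4 and 1 without Ly6Chi replicate 1, 5 and 1 without Ly6Chi replicate 2, 7 and 2 with median centring). The one that fell was Bcl2, at 17.8 and 7.03 against 1.21 and 1.39 TPM (log2 change -2.61 ± 0.40, adjusted p = 0.00461). Mcl1, a short-lived relative, measured 114 and 72.6 against 384 and 501 TPM (log2 change 2.06 ± 0.24, adjusted p = 0.00123), and Bcl2l1, which encodes BCL-XL, 11.6 and 9.94 against 17.8 and 18.5 TPM (8 of 12 fits). Of 28 histone and DNA modifying enzymes 8 rose and 6 fell (16 higher and 5 lower without cMoP replicate 1, 5 and 6 without cMoP replicate 2, 1 and 4 without Ly6Chi replicate 1, 3 and 4 without Ly6Chi replicate 2, 8 and 10 with median centring). Ezh2, the methyltransferase of Polycomb, measured 137 and 146 against 79.3 and 75.2 TPM, and its paralog Ezh1 11.96 and 5.52 against 28.6 and 25.4 TPM (11 of 12 fits). Ezh2 fell and Ezh1 rose. In shares, the enzyme list was 28.6% higher and 21.4% lower, near the 32.3% and 23.3% of all tested genes. Of 12 lamina and envelope genes 5 rose and 2 fell (4 higher and 1 lower with either Ly6Chi library left out). Lmnb1, lamin B1, did not pass (236 and 234 against 230.24 and 223 TPM), and Lbr, the lamin B receptor, rose, at 139.9 and 97.98 against 275 and 237 TPM (11 of 12 fits).

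RNA processing genes mainly fell. Of 44 core spliceosome genes 30 fell and 2 rose (1 higher and 20 lower without Ly6Chi replicate 1, 1 and 21 without Ly6Chi replicate 2, 1 and 34 with median centring, 1 and 32 with quantile normalisation; median -0.92). U2af1, which reads the 3′ splice site, measured 262 and 396 against 117 and 122 TPM (log2 change -1.61 ± 0.20, adjusted p = 0.00286), and its partner U2af2 270.1 and 305 against 201 and 199.73 TPM (10 of 12 fits). Sf3b1, which acts at the branch point, was 1 of the 2 that rose, at 127 and 99.3 against 228 and 214 TPM (log2 change 0.77 ± 0.15, adjusted p = 0.00395). Snrnp70 and Prpf8, of the U1 and U5 particles, did not pass, with Snrnp70 at 326 and 311 against 274 and 256 TPM. Among 47 splicing regulators 22 fell and 6 rose (11 higher and 20 lower without cMoP replicate 1, 3 and 21 without cMoP replicate 2, 0 and 11 without Ly6Chi replicate 1, 1 and 12 without Ly6Chi replicate 2, 3 and 27 with median centring). The SR protein gene Srsf7 measured 138 and 189 against 58.1 and 64.4 TPM, and Hnrnpa1 917 and 1132 against 465 and 439.85 TPM, both lower. Hnrnpll, a regulator of lymphocyte splicing, did not pass (66.9 and 57.6 against 64.97 and 61.4 TPM). Mbnl1, a regulator of alternative exons, rose, at 175 and 89.7 against 339.51 and 281 TPM (8 of 12 fits).

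Of the 23 NMD genes 9 fell and 4 rose (7 higher and 9 lower without cMoP replicate 1, 2 and 8 without cMoP replicate 2, 0 and 4 without Ly6Chi replicate 1, 0 and 3 without Ly6Chi replicate 2, 2 and 11 with median centring, 2 and 12 with quantile normalisation). Upf1, the central helicase, measured 47.1 and 44.7 against 48.9 and 44.2 TPM. Upf2, its activator, measured 19.7 and 18.8 against 20.2 and 18.2 TPM. Neither passed, and both overlapped between the groups. In shares, the NMD list was 17.4% higher and 39.1% lower, against 32.3% and 23.3% of all tested genes. Smg1, the kinase of Upf1, rose, at 22.5 and 11.2 against 49.2 and 41.1 TPM (8 of 12 fits). Export and decay genes fell in 13 of 26 members and rose in 4 (0 higher and 6 lower with either Ly6Chi library left out). Ddx39b, an export helicase, measured 389.81 and 399 against 236 and 239 TPM, and Xrn2, a nuclear 5′ exonuclease, 71.3 and 59.1 against 106 and 96.3 TPM (9 of 12 fits). Ddx39b fell and Xrn2 rose. Of 10 splicing kinases and phosphatases Srpk1 and 1 other fell and Clk3 rose (7 higher and 2 lower without cMoP replicate 1, 2 and 2 without cMoP replicate 2, 1 and 0 with either Ly6Chi library left out). Srpk1, which phosphorylates SR proteins, measured 76.6 and 65.4 against 41.9 and 38.1 TPM (10 of 12 fits), and Clk3 32.4 and 29.6 against 55.1 and 58.7 TPM. Clk1, whose own introns are often kept, did not pass (163 and 73.8 against 212 and 206 TPM).

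A list of immediate-early genes and NF-kB feedback genes, which respond within minutes to many stimuli, was chosen after its values were seen. It rose in 25 of 43 tested members and fell in 1 (29 higher and 0 lower without cMoP replicate 1, 20 and 0 without Ly6Chi replicate 1, 15 and 1 without Ly6Chi replicate 2). Atf3, a stress factor, measured 6.25 and 0.37 against 66.6 and 260.09 TPM (9 of 12 fits). Zfp36, which destabilises cytokine RNA, measured 235 and 65.8 against 613 and 1083 TPM (10 of 12 fits). In both, Ly6Chi replicate 2 was the highest and cMoP replicate 2 the lowest library. Relb, of the non-canonical NF-kB pathway, was more even, at 1.28 and 0.81 against 19.8 and 20.96 TPM (log2 change 3.20 ± 0.18, adjusted p = 0.000191).

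Intron retention was measured by boundary reads (reads crossing an exon-intron junction, both ends summed) against spliced reads of the same intron. An intron is called both-ended here where the smaller boundary count is at least 0.25 of the larger, and at least 20 boundary reads were found, in the group with more boundary reads per spliced read. Splice sites of some introns named below are printed first, from GENCODE M21 transcripts that run through the intron (GRCm38). They are given with 3 exon bases before the donor and after the acceptor, and the GT and AG ends in capitals. None of these introns was called in all fits described below.
Copg1 intron 9 donor (chr6:87893954-87894040, plus strand): cagGTgagg
Copg1 intron 9 acceptor: gttgctttgttctttggtAGccg
Pts intron 2 donor (chr9:50525285-50526869, minus strand): aagGTgagg
Pts intron 2 acceptor: ttttgttttctttctcacAGttg
Pcna intron 2 donor (chr2:132251759-132251902, minus strand): caaGTaagt
Pcna intron 2 acceptor: cattttccttcttttggtAGatc
Sf3b1 intron 4 donor (chr1:55014563-55016375, minus strand): atgGTaatt
Sf3b1 intron 4 acceptor: gttgctgttcttttctgcAGgag

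The whole of Copg1 intron 9, 87 bases, and of Usp19 intron 12 (chr9:108495733-108495810, plus strand), 78 bases, is given to show the shortest of the introns named below.
Copg1 intron 9: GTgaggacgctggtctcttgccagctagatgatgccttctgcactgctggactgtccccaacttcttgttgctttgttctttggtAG
Usp19 intron 12: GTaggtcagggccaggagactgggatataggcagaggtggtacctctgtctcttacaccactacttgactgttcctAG

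All introns together moved upward by a median log2 of 0.38 in boundary reads per spliced read. The pooled SD of the library medians was 0.32, and leaving out cMoP replicate 2 made the shift 0.12, leaving out cMoP replicate 1 0.83. The share of introns with a retention ratio (intron coverage over coverage plus spliced reads) of at least 0.1, among 65553 introns, was 4.38% (95% Wilson interval 4.22 to 4.53) and 1.52% (1.43 to 1.61) in cMoP and 6.04% (5.86 to 6.22) and 5.72% (5.54 to 5.9) in Ly6Chi. Intervals cover counting error only. The means differed by 2.93 percentage points (two-sided exact permutation p = 0.333, the smallest that 2 against 2 allows), by 1.5 points without cMoP replicate 2 and by 4.36 points without cMoP replicate 1. Of these introns, 788 in 603 genes reached 0.1 in both Ly6Chi libraries and neither cMoP library, and 22 did the reverse. The cMoP replicates differed by more than that, with 1925 introns over 0.1 in replicate 1 only and 51 in replicate 2 only.

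With that shift left in, 2 of 48132 introns in 6785 genes were higher (0.00416%) and 5 lower (0.0104%) by edgeR's quasi-likelihood test, and 5234 had an unadjusted p under 0.05. Without cMoP replicate 1 this fit gave 6808 higher and 180 lower, without cMoP replicate 2 15 and 20, without Ly6Chi replicate 1 1 and 1, and without Ly6Chi replicate 2 1 and 2. Boundary and spliced reads were also scaled apart, which removes the overall shift, and then 82 introns were higher (0.17%) and 115 lower (0.239%). The 7 calls made with the shift left in were all among them. The scaled fit depended on single libraries: without cMoP replicate 2 it gave 21 higher and 45 lower, and without cMoP replicate 1 it gave 952 and 704. Without Ly6Chi replicate 1 it gave 11 and 25, and without Ly6Chi replicate 2 10 and 25. Of the scaled calls 3 higher and 3 lower were made in all 7 scaled fits. Because fewer than 5 introns were higher with the shift left in, introns below are named from the scaled fit, and their log2 changes are relative to the overall shift. Those named for the size of their change are both-ended and carry no warning of the authors' tables in either library of the group with more boundary reads per spliced read. Introns with a warning are left out there even where their change was larger. All introns named below were picked by their calls, so a separation of their ratios follows largely from the choice.

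Of the 7 introns called with the shift left in, Apoe intron 1 and Rpl21 intron 1 were both-ended. Apoe intron 1 lies in the 5′ UTR at chr7:19698474-19699010 (minus strand), and its ratio was 0.374 and 0.477 against 0.0244 and 0.0158. Boundary reads numbered 66 and 53 against 88 and 82, while spliced reads numbered 57 and 26 against 2328 and 3274. Its log2 change was -5.59 with the shift left in (edgeR adjusted p = 0.000293) and -5.98 ± 0.38 scaled (adjusted p = 1.56e-12), and the authors' table marks it for low splicing in 3 of the 4 libraries. Spliced reads rose with the gene, which rose in expression, whereas boundary reads stayed under 100. Rpl21 intron 1, also in a 5′ UTR, had a scaled change of -2.73. The other 5, in Ubtf, H2-Ab1, Chil3, Adssl1 and Sema4d, were not both-ended, and the ratios of 2 of them overlapped between the groups, at 0.0177 and 0.0296 against 0.0204 and 0.0364 for H2-Ab1 intron 1 and 0.000748 and 0.00104 against 0.00207 and 0.000982 for Sema4d intron 2. H2-Ab1 intron 1 was called lower by boundary reads although the mean of its ratio was higher in Ly6Chi.

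Among both-ended introns, 64 in 50 genes were higher and 46 in 36 genes lower in Ly6Chi. Some introns of a gene overlap and share reads, as in Sf3b1, Ogt and H2afy, so the introns are not all separate events. Of the 64, 29.7% are covered by a GENCODE transcript annotated as a retained intron, against 10.5% of all 18230 both-ended introns tested and 4.35% of the 46. Their median length was 506 bases, against 889 for all both-ended introns tested and 516 for the 46. The sets also differ in depth, with a median of 591 spliced reads per library, against 273 and 1348 in the same order. A GENCODE transcript runs through 20 of the 64, all 20 with GT and AG ends, and the reading frame could be followed into 16. All 16 meet an in-frame stop codon, the median of them at intron base 71, and in Copg1 intron 9 it begins at base 2. Ends and stops were not counted over all tested introns, so neither can be read as particular to introns that rose. Of the 49 genes of these introns tested for expression, 16 rose, 19 fell and 14 did not pass, against 2348, 1603 and 2808 of all 6759 genes with tested introns.

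Ogt encodes the enzyme that attaches O-GlcNAc to nuclear and cytosolic proteins, and its intron 4 lies within the coding part at chrX:101652209-101655623 (plus strand). Its ratio was 0.446 and 0.133 against 0.797 and 0.78. Boundary reads numbered 118 and 20 against 623 and 518, and spliced reads 92 and 50 against 79 and 75 (scaled log2 change 2.76 ± 0.35, adjusted p = 2.27e-05), a call made in all 7 scaled fits. Both Ly6Chi libraries were above both cMoP libraries, and cMoP replicate 2 was the lowest. Ogt expression also rose, from 35.5 to 146 TPM on average.

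Ctsd, the aspartic cathepsin D, had 3 of 8 tested introns higher. Intron 3 (chr7:142382711-142383417, minus strand) had 7 and 0 against 63 and 72 boundary reads and 1860 and 1550 against 2433 and 2460 spliced reads (scaled log2 change 3.39 ± 0.53, adjusted p = 0.00054), a call made in all 7 scaled fits. Introns 6 and 8 had log2 changes of 2.33 and 1.78, and the ratio of intron 8 was 0.0125 and 0.00513 against 0.043 and 0.0692. The spliced form stayed by far the larger in all 4 libraries. Trip6 intron 1, of a LIM-domain adaptor, was mostly unspliced in 3 of them, with a ratio of 0.804 and 0.426 against 0.966 and 0.938 (scaled log2 change 3.02 ± 0.54, adjusted p = 0.0039; 5 of 7 scaled fits).

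Several introns that rose lie in genes of RNA processing. Sf3b1 intron 4 had a ratio of 0.0647 and 0.0127 against 0.0905 and 0.14 (scaled log2 change 1.79 ± 0.33, adjusted p = 0.00496; 4 of 7 scaled fits). Snrnp70 intron 7 had 0.137 and 0.0385 against 0.25 and 0.266, and U2af1 intron 1 0.0125 and 0.00142 against 0.0294 and 0.0263. Sfpq intron 9, of a paraspeckle protein, had 0.119 and 0.0184 against 0.196 and 0.179. In all 4 introns cMoP replicate 2 was the lowest library, and the last 3 passed in 3 of 7 scaled fits. The authors' tables mark the first 3 for uneven intron coverage or as a minor isoform in all 4 libraries. Over the whole core spliceosome list, 5 of 392 introns, in 4 genes, rose and none fell, with a median of -0.04 against -0.01 for all tested introns. The Sf3b1 introns among the 5 overlap and share boundary reads, so they are not separate events. Of 380 introns of splicing regulators 1 rose and none fell, with a median of -0.18, and none of 177 introns of NMD genes or 227 of export and decay genes passed. Of all tested introns 0.17% were higher and 0.239% lower, so the few calls in these last 3 lists cannot be told from that background.

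Others lie in genes of replication, polyamine synthesis and signalling. Pcna, the sliding clamp of replication, had introns 2 and 3 higher. The ratio of its intron 2 was 0.00976 and 0.00218 against 0.0252 and 0.0231 (scaled log2 change 1.83 ± 0.36, adjusted p = 0.00949; 3 of 7 scaled fits), while Pcna expression fell. Odc1, the first enzyme of polyamine synthesis, had a ratio of 0.149 and 0.0393 against 0.299 and 0.228 for intron 11 (3 of 7 scaled fits). Boundary reads there fell, at 247 and 169 against 39 and 47, and spliced reads fell by more, at 903 and 2103 against 43 and 74. Odc1 expression fell from 196 to 12.7 TPM on average. Ikbkb, the kinase IKK-beta, had 0.0314 and 0.000961 against 0.1 and 0.089 for intron 14 (scaled log2 change 1.92 ± 0.41, adjusted p = 0.0211; 3 of 7 scaled fits), and its expression rose. The ratios of Pcna, Odc1 and Ikbkb separated the groups, and cMoP replicate 2 was the lowest in each. Pts intron 2, of an enzyme of biopterin synthesis, had 0.0457 and 0.0115 against 0.17 and 0.117. The remaining introns named by size were Copg1 9, Usp19 12, Ewsr1 7 and Exoc1 13, with scaled changes of 1.82 to 2.31. Copg1 intron 9 passed in 3 and Usp19 intron 12 in 1 of 7 scaled fits. Cdk16 introns 8 and 9, adjacent and chosen after their values were seen, also rose, with 0.167 and 0.051 against 0.372 and 0.342 for intron 9.

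**Figure D4:**
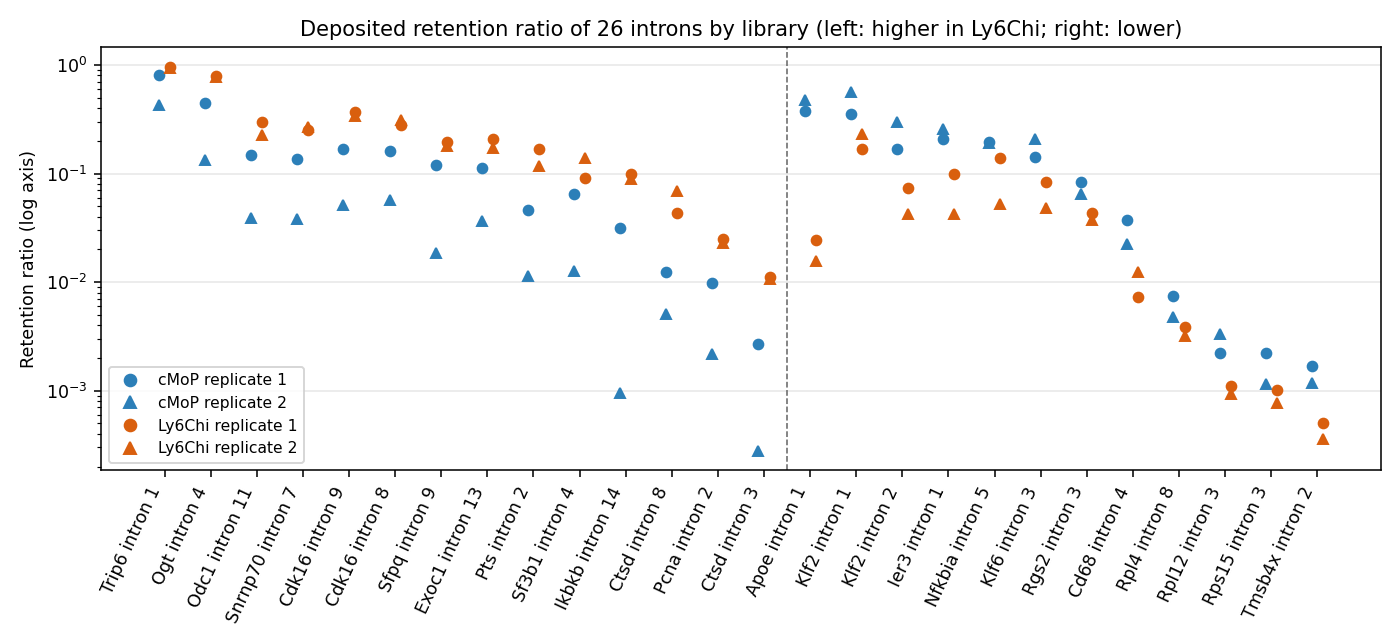
Deposited retention ratio (log axis) of 26 introns in the 2 cMoP libraries (blue) and the 2 Ly6Chi libraries (orange), circles for replicate 1 and triangles for replicate 2. In the 14 introns left of the dashed line both Ly6Chi libraries lie above both cMoP libraries and cMoP replicate 2 is lowest, and in the 12 on the right both Ly6Chi libraries lie below, with cMoP replicate 2 the higher cMoP library in 6. The introns were picked as called in the direction shown, so this separation follows largely from the choice.

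Of the 36 genes with a both-ended intron that fell, 14 rose in expression, 9 fell and 13 did not pass. These shares were near those of all 6759 genes with tested introns, at 2348, 1603 and 2808. Cd68, a lysosomal membrane protein of phagocytes, had 4 of 5 tested introns lower. Its intron 4 (chr11:69664922-69665034, minus strand) had 30 and 20 against 37 and 59 boundary reads and 380 and 376 against 2206 and 2637 spliced reads (scaled log2 change -2.17 ± 0.37, adjusted p = 0.0018; 6 of 7 scaled fits). Spliced reads thus rose by more than boundary reads. Nfkbia, the inhibitor of NF-kB, had 3 of 5 lower, with a ratio of 0.197 and 0.192 against 0.14 and 0.0528 for intron 5 (scaled log2 change -1.78 ± 0.36, adjusted p = 0.0126; 5 of 7 scaled fits). Klf2, a factor of quiescent leukocytes, was chosen after its values were seen. Its intron 2 had a ratio of 0.168 and 0.3 against 0.0728 and 0.0421 (scaled log2 change -2.83 ± 0.36, adjusted p = 1.98e-05), a call made in all 7 scaled fits, and its intron 1 0.354 and 0.562 against 0.167 and 0.229. In Klf2 and Apoe the higher cMoP ratio was that of replicate 2, which had the fewest boundary reads overall.

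Further immediate-early genes had introns that fell. Ier3 intron 1 had a ratio of 0.21 and 0.258 against 0.0994 and 0.0425 (4 of 7 scaled fits), and Klf6 intron 3 0.143 and 0.21 against 0.0837 and 0.0477 (2 of 7). Rgs2, a brake on G protein signals, had 0.0833 and 0.0642 against 0.0432 and 0.0373 for intron 3 (4 of 7). The groups did not overlap in these 3 introns. Across the whole list 11 introns in 8 genes were lower and 1 higher among 65 introns, and the median was -0.54. Tmsb4x intron 2 had a ratio of 0.00169 and 0.00117 against 0.000504 and 0.000362, and Snx5 intron 13, of a sorting nexin, 0.0122 and 0.011 against 0.00521 and 0.00509.

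In the ribosomal protein list, introns that passed were all lower. Of 192 introns in 54 genes 18 in 13 genes were lower and none higher, with a median of -0.70 scaled and -0.25 with the overall shift left in; 97.4% had a scaled change below 0, against 50.6% of all tested introns. Summed over the list, boundary reads per 100 spliced reads were 3.27 in both cMoP libraries and 3.07 in both Ly6Chi libraries. The same sums over all tested introns were 6.45 and 4.44 against 7.33 and 7.28, so the ribosomal protein sums did not share the gap between the cMoP replicates. Rpl4 had 3 of 5 tested introns lower, and the ratio of intron 8 was 0.00743 and 0.00472 against 0.00387 and 0.00322 (3 of 7 scaled fits). Rpl12 intron 3 had 0.00222 and 0.00334 against 0.00111 and 0.000937 (4 of 7). Rps15 intron 3 had 0.00221 and 0.00114 against 0.00101 and 0.000771 (3 of 7). Ratios were under 0.01 in all 3, so nearly all transcripts were spliced there. In the mitochondrial ribosome list, which fell in expression as well, 100 introns had a median of 0.37, with 1 higher and none lower. These calls are too few to read against the 0.17% higher and 0.239% lower of all tested introns.

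**Figure D5:**
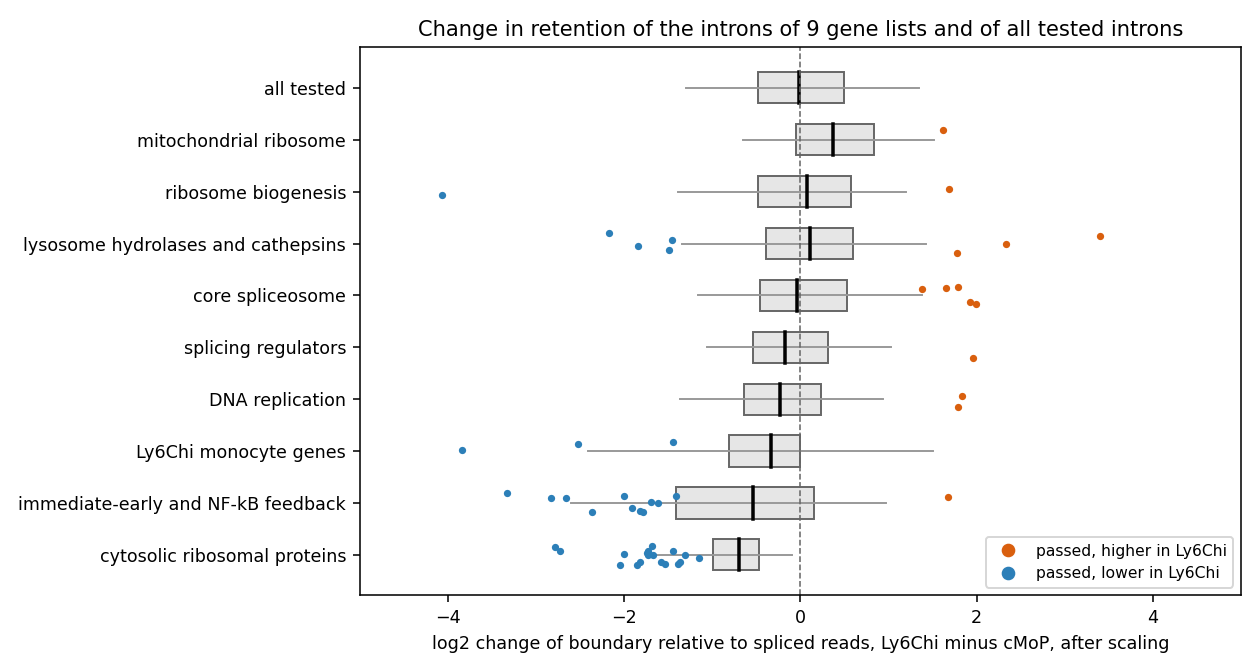
Scaled log2 change of boundary relative to spliced reads for introns of 9 gene lists and for all tested introns (boxes, 25th to 75th percentile with the median; lines, 5th to 95th percentile; points, introns that passed). Ribosomal protein introns have a median of -0.70 and immediate-early introns -0.54, and the median of all tested introns is -0.01.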

How the data were processed

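Polyadenylated RNA of bone marrow cells was extracted with Trizol (RIN over 7) and sequenced strand-specifically with 100-base reads, per the labels' protocols. FastQC, Trimmomatic, STAR 2.5.2a, RSEM and the builds mm10 and hg38 are listed per the submitters' processing notes, with no order. Each intron position used here lies on mm10. The deposited expression table is named FPKM, but every column has the same sum, as TPM do and FPKM do not, so its values were treated as TPM made by the authors. The deposited intron tables hold read counts (reads across each exon-intron boundary and spliced reads), a coverage signal over the intron, which the authors did not scale to the library, and 2 fractions, the share of intron bases covered and the retention ratio. The program that made them is not given in the sources used here. Retention ratios could be recomputed from these columns within 0.0001 for 95.2 to 97.1% of introns. Spliced reads ranged from 31170294 to 37591021 per library of cMoP and Ly6Chi, which sets the counting precision of the ratios. TPM keeps no depth.

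Libraries were grouped by their labels. TPM + 1 was put on a log2 scale for genes with at least 1 TPM in 2 or more libraries (13126 of 48709) and fitted with limma 3.58.1 (eBayes with trend) over all 8 libraries in 5 groups, with Benjamini-Hochberg adjustment over all genes tested and a threshold of 0.05. Retention was tested with edgeR 4.0.16 (quasi-likelihood) on boundary against spliced counts of introns unmarked for a known exon or antisense gene, with at least 20 reads in every library and at least 20 boundary reads in all. Spliced reads were taken from whichever end had more of them. A single value was tested by an exact permutation test. The fits were tested on simulated data. DESeq2 1.42.0, R 4.3.3, Python 3.11.15 and pandas 2.3.3 were also used. Promoters came from RefSeq (GRCm38.p6) and splice sites from GENCODE transcripts, and genomic sequence beyond these was not used here.

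The members and gene lists were chosen with earlier results of these data known. Genes named in the text are list genes set aside for this and the 12 with the largest rise and the 12 with the largest fall in mean TPM among called genes without overlap, apart from exceptions stated beside them or needed to name the few members of a list that did not follow it. Mitochondrially encoded genes and genes with clone names were left out of the 12. Introns named by size are up to 12 with the largest change in each direction, 1 a gene, among called both-ended introns without a warning. Fewer than 12 genes had an intron that fell and met this rule, so each of them is included. Called introns of listed genes and of genes with 3 or more called introns were named as well. No warning was read, after the values were seen, as none by the authors' tables in either library of the group with more boundary reads per spliced read. The alternatives were pseudocount, low-value filters, scalings, tools, samples in the fit, a replicate block, subsets of introns and leaving out each library.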

Additional observations from a re-analysis of the deposited data

How the results depend on the processing

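The expression counts, 4235 higher and 3053 lower, ranged from 2164 to 5510 and from 1595 to 3284 when 1 library was left out, and stayed within 1.5 times under the other settings. Of 201 genes named or listed for naming, none changed direction, and 65 lost or gained a call in at least 1 setting, most without Ly6Chi replicate 1 (37 lost, 1 gained) or replicate 2 (38 lost). Counts of introns depended on nearly every choice. The 2 higher and 5 lower became 82 and 115 with boundary and spliced reads scaled apart, 7 and 8 with DESeq2, and 110 and 177 with limma on intron coverage. With only the 4 libraries fitted there were 1 and 1. The smaller boundary count gave 0 and 1 in edgeR (1932 and 238 at an unadjusted p under 0.05). Introns without a warning gave 0 and 0 (120 and 2 unadjusted, of 853), and introns of the 3′-most of 3 parts of a gene 0 and 0 (1405 and 117 unadjusted). Including marked introns gave 5 higher, and at least 50 boundary reads 2 lower. Leaving out 1 library gave 1 to 6808 higher and 1 to 180 lower. In settings chosen after seeing the data, scaling gave 952 and 704 without cMoP replicate 1, 21 and 45 without cMoP replicate 2, 11 and 25 without Ly6Chi replicate 1 and 10 and 25 without Ly6Chi replicate 2, and scaling with the smaller boundary count 18 and 34. The median shift of 0.38 was 0.74 with the smaller boundary count and 0.74 for introns without a warning, 0.34 to 0.59 under other settings, and 0.12 to 0.83 with 1 library left out. The difference of 2.93 points ranged from 0.876 (ratio of at least 0.2) to 6.37 (at least 0.05). H2-Ab1 reversed with the smaller boundary count (log2 change 2.01, or 6.11 scaled), and Sema4d with the smaller boundary count (-1.13, or -0.91 scaled) and with limma on intron coverage (-1.16). The cause of these changes was not tested. The differences between replicates 1 and 2 correlated over genes at r = 0.063 between cMoP and Ly6Chi. The values were -0.136 between cMoP and the knockout and -0.130 between Ly6Chi and the knockout. With only 2 replicates in each group, these values cannot show whether equal numbers mark shared animals, which the labels do not state. With the replicate block, expression gave 3693 higher and 2638 lower, retention 2 and 3, or 69 and 92 scaled, and the median shift was 0.39. Low spliced counts limit the ratios of weakly expressed genes.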
